A study of Mus musculus with 6 samples.

Results

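DNA methylation of 5 genes known to restrain renal fibrosis, Kl, Rasal1, Bmp7, Smad7 and Sfrp1, was read from reduced representation bisulfite sequencing of mouse kidney. Each gene was taken as a fixed span of the mm9 genome, and a CpG site entered when it had at least 10 reads in every library. This gave 608 sites of 943307 such sites in the series: 46 in Kl (chr5:151753000-151798000), 113 in Rasal1 (chr5:121096000-121131000), 166 in Bmp7 (chr2:172691000-172769000), 200 in Smad7 (chr18:75525000-75558000) and 83 in Sfrp1 (chr8:24519000-24562000). The methylation level of a site is the percent of its covering reads that were methylated.

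All mice were wild-type male C57BL/6J, and DNA came from kidney cortex and outer medulla. The 3 groups held 2 libraries each. In both obstruction groups the left ureter was tied and cut for 7 days (unilateral ureteral obstruction, UUO), a model in which the tubules dilate and the interstitium scars. The first group received 5AZA, a cytidine analogue that inhibits DNA methyltransferases, by intraperitoneal injection at 1 mg/kg/day, and the second received saline. The third was sham-operated. Sham 1 is labelled as the sham of the 7-day obstruction, whereas sham 2 is labelled as the sham of a kidney ischemia/reperfusion experiment with a 48 h mark. The labels give no ages, and they do not say whether the libraries of a group came from separate mice, so p-values measure the spread between these libraries, which may be technical.

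Scarring in the obstructed kidney is driven in large part by TGF-β, which signals through receptor-activated SMAD proteins, and by Wnt and Ras signals that activate fibroblasts. Kl encodes klotho, a co-receptor for FGF23 made mainly by the distal tubule, whose shed form also binds TGF-β receptors and Wnt ligands. Bmp7 is a secreted ligand of the BMP family that opposes TGF-β in tubule cells, and Sfrp1 is a secreted protein that binds Wnt ligands. Smad7 is an inhibitory SMAD that blocks the TGF-β receptor, and Rasal1 is a GTPase-activating protein that switches Ras off. Methylation of CpG-dense promoters is a mark that usually goes with silent genes. RNA was not analysed here, so neither the expression of these genes nor the cell types of the tissue could be checked by markers, and in whole tissue a change in cell types and a change within cells cannot be told apart.

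The libraries held between 37728517 and 76730132 covering reads, with a median site coverage of 21 to 48, lowest in sham 2. Over all 943307 sites the mean level was 43.5% and 43.1% with 5AZA, 45.3% and 45.3% with saline, and 44.4% and 43.0% in sham 1 and sham 2. Within the gene spans the summed reads ran from 1607 to 3217 per library in Kl, 4572 to 7635 in Rasal1, 5800 to 11786 in Bmp7, 7647 to 16129 in Smad7 and 3095 to 6526 in Sfrp1.

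The Kl gene start is shown because it is where a methylated promoter would be read, and because a single base context stands out in it. The sequence runs from 250 bases before to 30 bases after the start on the + strand, chr5:150952357-150952636 in the GRCm38.p6 build of RefSeq. Capitals mark every CpG and the whole of CCGG, the site that MspI cuts to make the libraries.
Kl promoter: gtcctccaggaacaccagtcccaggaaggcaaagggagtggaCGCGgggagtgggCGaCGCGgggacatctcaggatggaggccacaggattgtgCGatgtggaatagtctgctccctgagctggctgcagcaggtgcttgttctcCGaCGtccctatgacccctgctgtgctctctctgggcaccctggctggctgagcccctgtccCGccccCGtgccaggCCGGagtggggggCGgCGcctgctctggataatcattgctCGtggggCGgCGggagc
The spacing of its CpGs matched the positions in the files at 1 place in the Kl span, which put the gene start at base 151755182 of chromosome 5 in mm9. Of 19 CpGs in the full 300 bases, 6 were read in the files and 5 of them had 10 or more reads in every library. The first 10 CpGs of the printed stretch were not read.

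The shared CpGs at the Kl start were nearly free of methylation in every library except at the CCGG. Of the 4 other shared CpGs, those 14 and 11 bases before the start and 13 and 20 bases after it, none exceeded 8.2% in any library. The CpG 23 bases after the start, with 4 to 32 reads per library, is not among the 5 shared sites. It had 0% and 12% with 5AZA, 15.6% and 6.67% with saline, and 11.1% and 0% in the sham kidneys. The CpG inside the CCGG, 26 bases before the start, was methylated at 79.6% and 55.1% with 5AZA, 64.8% and 78.0% with saline, and 69.2% and 66.7% in the sham kidneys. Its level overlapped between all 3 groups. Summed over these 5 sites the promoter stood at 18.9% and 15.5% with 5AZA, 14.9% and 18.0% with saline, and 16.4% and 15.8% in the sham kidneys, and it did not differ between saline and sham by edgeR's quasi-likelihood test (adjusted p = 1.00, adjusted over all 8589 promoters placed in this way).

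High CCGG values were not particular to Kl. Among 8041 placed promoters whose other CpGs had a median level of at most 5%, the 17472 CCGG CpGs averaged 69.0% to 74.0% across the 6 libraries, against 1.06% to 2.33% at the 91684 other CpGs. Of the CCGG sites 92.3% met a definition of a candidate fragment end, against 1.00% of the others. By that definition a site's coverage equals the sum of both neighbours' coverage within 5%, or its mean level is 30% or more in a 1 kb window of 10 or more sites with a median under 5%. The second condition uses the level itself. Per the labels' protocols, fragment ends were repaired with a nucleotide mix that contained methylated dCTP; the part of that step in these values was not tested. Levels in CpG-dense stretches are therefore given below with and without such sites.

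**Figure D1:**
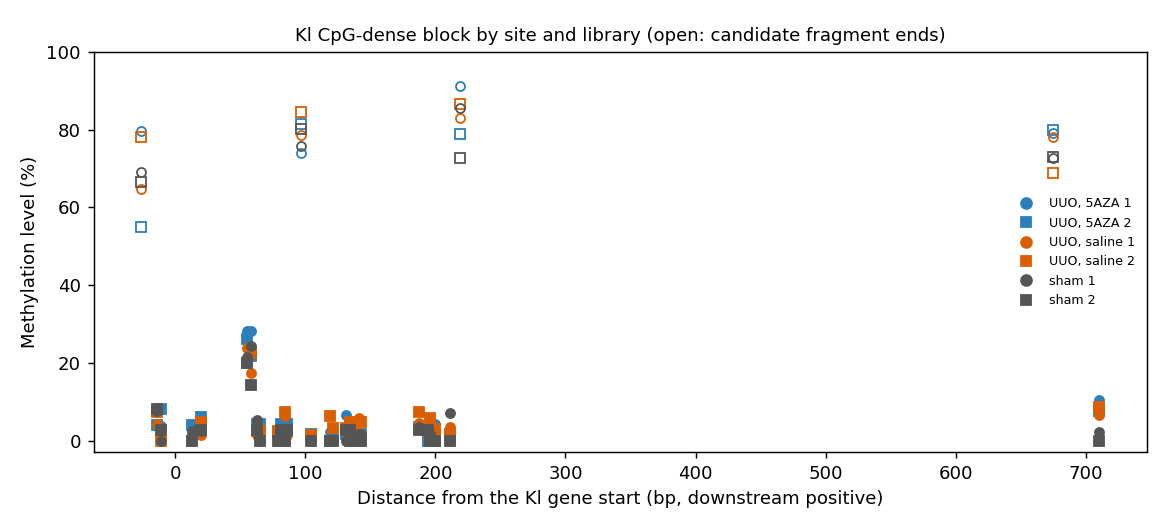
Methylation level (%) of the 30 shared CpG sites of the Kl CpG-dense block against distance from the gene start in bp, for each of the 6 libraries. Filled symbols lie at the bottom apart from a pair of sites 55 and 58 bp downstream at 14.3% to 28.3%, while the 4 candidate fragment ends (open symbols) average 73.2% to 81.0% in the 6 libraries.

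Every gene had 1 contiguous CpG-dense block, defined as the 1 kb windows with 10 or more shared sites and a median site level under 20%. The block of Kl was 1 window (chr5:151755001-151756000) with 30 sites, and those of Rasal1 (chr5:121098001-121100000) and Sfrp1 (chr8:24521001-24523000) were 2 windows with 55 and 65 sites. The Bmp7 block was 3 windows (chr2:172764001-172767000) with 87 sites, and the Smad7 block was 4 windows (chr18:75526001-75530000) with 168 sites. Exons and introns were not assigned, because no mm9 annotation was used here.

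Because a block is defined by a low median, and because candidate fragment ends are sites of high level, the levels inside blocks are a description and only the order of the groups is read. Over all sites of the block, Kl stood at 14.5% and 13.6% with 5AZA, 13.4% and 15.0% with saline, and 13.1% and 12.0% in sham kidneys. Rasal1 stood at 20.9% and 21.5% with 5AZA, 20.7% and 21.3% with saline, and 21.1% and 20.4% in sham kidneys. Over all sites the 6 libraries spanned 16.6% to 18.9% in Bmp7, 12.9% to 15.5% in Smad7 and 7.74% to 10.7% in Sfrp1. Bmp7 stood there at 18.9% and 18.5% with saline and 18.6% and 16.6% in sham kidneys, so these groups overlapped. They also overlapped in Smad7, and in Sfrp1 both saline libraries lay above the other 4. Without candidate fragment ends, the Kl block stood at 4.23% and 4.30% with 5AZA, 3.73% and 5.11% with saline, and 3.45% and 2.58% in sham kidneys. The Rasal1 block stood at 2.93% and 3.40% with 5AZA, 3.07% and 2.81% with saline, and 3.39% and 1.95% in sham kidneys. Smad7 was at 2.16% and 2.15% with 5AZA, 1.67% and 2.19% with saline, and 1.92% and 0.559% in sham kidneys. In Sfrp1 the level was 1.49% and 1.72% with 5AZA, 2.57% and 2.35% with saline, and 1.38% and 0.695% in sham kidneys, so both saline libraries lay above the other 4. In Bmp7 it was 2.40% and 2.30% with 5AZA, 3.17% and 2.76% with saline, and 2.69% and 2.52% in sham kidneys. Both saline libraries were again the highest. Over all sites this order was absent, and without candidate fragment ends saline 2, at 2.76%, lay close to sham 1, at 2.69%. Sham 2, the shallowest library, was also the lowest of the 6 over the blocks of the 5 genes together, at 1.32% against 2.29% to 2.64% in the others. With candidate fragment ends included, all 12 dense windows differed between saline and sham by 0.158 to 2.16 percentage points, and none passed the test described below.

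Outside the blocks the mean level ran from 48.01% to 86.1% by gene and library, so the genes differed among themselves there. Bmp7 was the most methylated, at 83.5% and 82.4% with 5AZA, 85.9% and 85.7% with saline, and 86.1% and 83.7% in sham kidneys over 79 sites. Kl, with 16 sites, had 71.7% and 71.1% with 5AZA, 78.4% and 76.1% with saline, and 66.4% and 63.8% in sham kidneys. Its 3 groups did not overlap, and the 5AZA libraries lay between the other groups. Smad7 was the least methylated, with 48.1% and 50.3% with 5AZA, 57.6% and 56.1% with saline, and 49.0% and 48.01% in sham kidneys over 32 sites, so that the 5AZA libraries overlapped the sham libraries and lay below the saline libraries. Of the 32 Smad7 sites, 8 lay in a window that adjoins the block, with a median site level of 2.68%, which lowers the Smad7 mean. Rasal1 had 63.7% and 63.4% with 5AZA, 69.1% and 68.1% with saline, and 66.8% and 63.4% in sham kidneys over 58 sites. Sfrp1 had 68.8% and 66.2% with 5AZA, 67.5% and 76.7% with saline, and 71.1% and 64.5% in sham kidneys over 18 sites, and its groups overlapped.

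**Figure D2:**
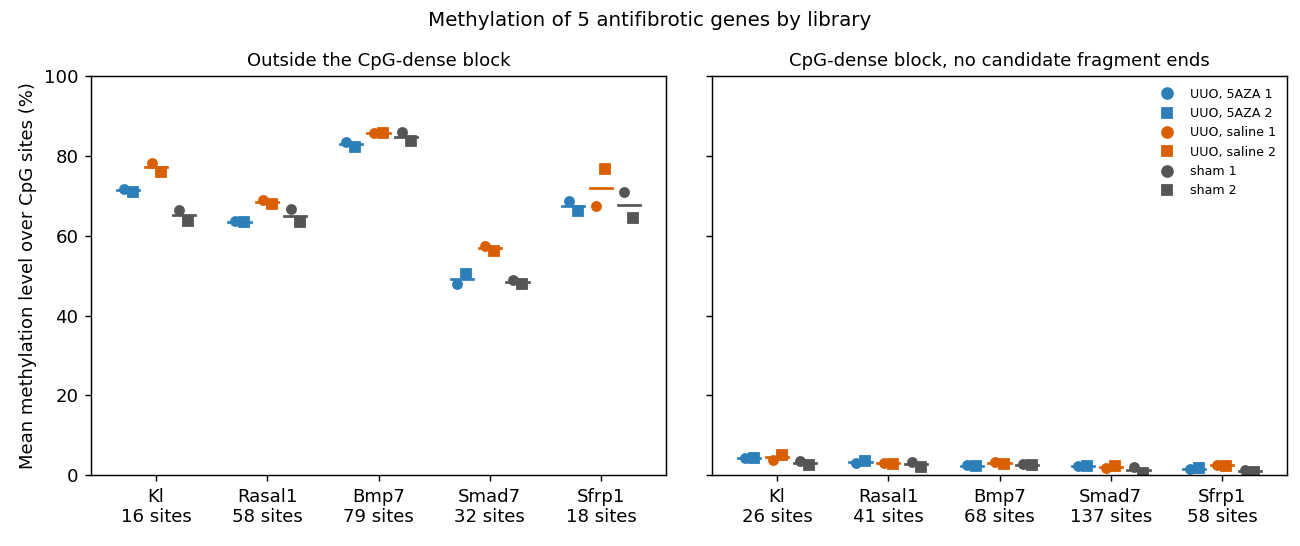
Mean methylation level (%) of each gene outside its CpG-dense block (left) and inside it without candidate fragment ends (right), 1 symbol per library, bars at group means of 2 libraries. Outside the block, saline libraries lie above sham libraries in Kl, Rasal1 and Smad7. Inside the block, where the definition and the removal of candidate fragment ends keep levels low, the highest library is at 5.11%.

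The mean level outside the block was thus 12.1 percentage points higher with saline than in sham kidneys in Kl and 8.36 points higher in Smad7, against 3.48 points in Rasal1, 4.30 in Sfrp1 and 0.919 in Bmp7. Leaving out any 1 library kept it at 10.8 points or more in Kl and 7.63 or more in Smad7, but turned the sign in Bmp7 without sham 2 (-0.274) and in Sfrp1 without saline 2 (-0.280). In Rasal1 it was 1.78 points without sham 2 and 5.18 without sham 1, and in Sfrp1 0.971 without sham 2 and 8.88 without saline 1. Of the 16 Kl sites outside the block, 4 lie in a single window about 3 kb downstream of the block. The difference in that window was 23.9 points, and some of its sites share reads, as described below. The Kl mean leans on this window, and it was not computed without it. Over whole spans, blocks included, the differences were 5.29 points in Kl, 2.36 in Smad7, 1.93 in Rasal1, 2.49 in Sfrp1 and 1.00 in Bmp7. Over the whole span, saline and sham libraries did not overlap in Kl, Rasal1, Smad7 and Sfrp1, for which p = 0.33 by exact permutation (two-sided), the lowest value possible with 2 libraries against 2. Sham 2 was lower than sham 1 in all 5 spans, and without it the difference was 4.48 points in Kl, 1.604 in Smad7, 0.879 in Rasal1, 1.07 in Sfrp1 and -0.112 in Bmp7. With methylated reads pooled over all reads of a span instead, the differences were 3.31 points in Kl, 0.833 in Rasal1, 0.0708 in Smad7, -0.816 in Sfrp1 and -1.63 in Bmp7, so the size in every gene, and the sign in Sfrp1 and Bmp7, depended on the weight of the sites. Because sites of intermediate level can move most, the 129 sites with a mean of 20% to 80% were also compared. Saline exceeded sham there by 14.2 points in Kl, 7.27 in Smad7, 5.66 in Sfrp1, 3.97 in Bmp7 and 3.75 in Rasal1, beside 4.22 points over all shared sites of that range. Saline and sham libraries overlapped at these sites in Sfrp1 and Bmp7. In Kl the range held 11 sites, among them those that carry the difference of the downstream window. The 129 sites include candidate fragment ends, and the comparison was not made without them. The 75 candidate fragment ends inside the blocks averaged 68.8% to 75.3% in the 6 libraries, and saline exceeded sham by 3.26 points at these 75 sites. The saline libraries stood there at 73.24% and 75.3%, sham 1 at 73.16% and sham 2 at 68.8%, so saline 1 and sham 1 were nearly equal.

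The 1 kb windows were tested with edgeR's quasi-likelihood test on methylated and unmethylated counts, fitted over all 89813 windows of the genome with 3 or more sites and adjusted by Benjamini-Hochberg at 0.05. Of the 42 windows in the 5 genes none passed between saline and sham, where 0.0501% of all windows did, and none passed by limma. The genome-wide calls themselves were 0 by limma and 0 when candidate fragment ends were left out, in each comparison of windows, and they numbered 1 between saline and sham without sham 2. At an unadjusted p under 0.05 there were 7 of 42, against 10.4% of all windows. Of 595 sites tested singly none passed either, beside 0.00283% of all sites tested, and 20 had an unadjusted p under 0.05 beside 3.99%. In 19 of the 42 windows, or 45.2%, every saline library was higher than every sham library, beside 32.3% of all windows, and in 2 windows every one was lower, beside 9.73%. The 30 windows outside the blocks had 18 in the first state, or 60.0%, against 31.1% of all windows outside dense ones. Their median difference was 4.48 points, against 1.21 points. Inside the blocks 1 of 12 windows was in the first state, or 8.33%, against 37.2% of all dense windows. The median difference inside the blocks was 0.712 points, against 1.005 points in all dense windows. Set against sham 1 alone, both saline libraries were higher in 19 of the 30 windows, or 63.3%, beside 42.8%, with medians of 2.67 and 0.607 points.

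Kl had the largest of these differences, in a window of 4 sites that begins about 3 kb downstream of its start (chr5:151758001-151759000). The window stood at 71.6% and 68.2% with 5AZA, 80.1% and 79.2% with saline, and 55.6% and 55.9% in sham kidneys, from 107 to 271 reads per library. The Wilson 95% intervals were 74.9% to 84.4% and 72.0% to 84.9% in the saline libraries, against 46.2% to 64.6% and 47.7% to 63.7% in the sham libraries; they cover counting error only. Saline exceeded sham by 23.9 points, more than the spread within either group, yet the window missed the genome-wide threshold (edgeR adjusted p = 0.0758, and 0.0571 to 0.474 under 9 alternatives).

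The first of the 4 sites, 3274 bp downstream of the start, was at 96.2% or more in every library. The difference came from the other 3 sites, which lie within 16 bp and share reads, so they are not independent. The site at 3387 bp had 60.0% and 44.4% with 5AZA, 65.2% and 63.2% with saline, and 28.6% and 32.4% in sham kidneys, the largest site difference of Kl. The site at 3397 bp had 15 of 30 reads and 51.9% methylated with 5AZA, 66.7% and 71.1% with saline, and 39.3% and 32.4% in sham kidneys. The site at 3402 bp had 83.3% and 81.5% with 5AZA, 89.9% and 86.8% with saline, and 60.7% and 61.8% in sham kidneys. At each of these 3 sites the 5AZA libraries lay below the saline libraries and above the sham libraries. Tested singly, none passed (edgeR adjusted p = 0.937 for each between saline and sham).

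**Figure D3:**
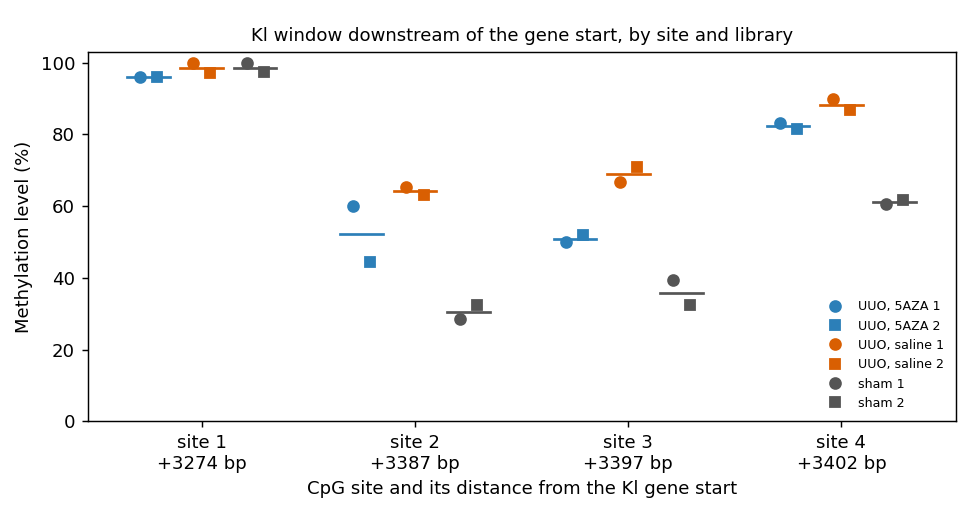
Methylation level (%) of the 4 CpG sites in the Kl window downstream of the gene start, by site and distance in bp, 1 symbol per library, bars at group means of 2 libraries. At the 3 right-hand sites the saline libraries (63.2% to 89.9%) lie highest, the 5AZA libraries lie between and the sham libraries (28.6% to 61.8%) lie lowest.

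The other Kl windows outside the block had the same order of saline and sham. The window next to the block (chr5:151756001-151757000, 3 sites) stood at 26.4% and 30.8% with 5AZA, 37.0% and 29.0% with saline, and 21.6% and 21.2% in sham kidneys. A window that lies 35 kb beyond the block (chr5:151791001-151792000, 9 sites) had 87.9% and 86.8% with 5AZA, 93.2% and 91.6% with saline, and 87.2% and 84.2% in sham kidneys. Both missed the threshold between saline and sham (edgeR adjusted p = 0.383 and 0.204).

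In Smad7 the saline libraries were higher than the sham libraries, without overlap, in all 6 windows outside the block. The window that adjoins the block (chr18:75530001-75531000, 8 sites) had a median site level of 2.68% and a difference of 1.01 points. The largest difference, 13.5 points, was in a window of 4 sites (chr18:75544001-75545000) with 44.4% and 59.6% with 5AZA, 67.0% and 65.5% with saline, and 56.7% and 48.8% in sham kidneys (edgeR adjusted p = 0.503). A window of 5 sites that lies 9 kb beyond the block (chr18:75539001-75540000) had 44.1% and 55.6% with 5AZA, 64.8% and 57.5% with saline, and 50.8% and 45.3% in sham kidneys (adjusted p = 0.365). It held the site with the smallest p of all members, at base 75539073, singled out after its values were seen. That site had 11.3% and 32.3% with 5AZA, 49.2% and 22.5% with saline, and 3.45% and 17.8% in sham kidneys (edgeR adjusted p = 0.637). The libraries of each group lay far apart at this site, and saline and sham did not overlap. The largest site difference in Smad7 whose groups did not overlap was at base 75535573, with 20.9% and 27.3% with 5AZA, 66.7% and 42.1% with saline, and 14.3% and 33.3% in sham kidneys from 12 to 43 reads.

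In Rasal1 the largest window differences between saline and sham were 7.31 points in the window that adjoins its block (chr5:121100001-121101000, 3 sites) and 7.28 points in a window 16 kb beyond it (chr5:121116001-121117000, 8 sites). The window of 8 sites had 29.8% and 29.2% with 5AZA, 37.1% and 36.7% with saline, and 30.5% and 28.8% in sham kidneys (edgeR adjusted p = 0.390 between saline and sham). Its 5AZA and sham libraries overlapped. The window that adjoins the block had 46.3% and 42.7% with 5AZA, 38.4% and 38.6% with saline, and 35.1% and 27.2% in sham kidneys, so here 5AZA stood highest; the difference between saline and sham was 3.35 points without sham 2 and 11.3 without sham 1. Bmp7 held differences of both signs. A window of 3 sites (chr2:172715001-172716000) had 71.7% and 72.1% with 5AZA, 72.1% and 82.3% with saline, and 70.2% and 66.7% in sham kidneys, a difference of 8.78 points between saline and sham that was 3.68 without saline 2 and 13.9 without saline 1. A window of 7 sites that lies 4 kb from the block (chr2:172759001-172760000) had 59.4% and 51.2% with 5AZA, 57.0% and 49.2% with saline, and 67.7% and 56.8% in sham kidneys, where saline and sham overlapped and the difference was -3.68 points without sham 1 and -14.6 without sham 2. Sfrp1 likewise had a difference between saline and sham of 13.3 points in a window of 7 sites (chr8:24525001-24526000), where libraries overlapped, and of -9.17 points in a window of 3 sites (chr8:24547001-24548000). The window of 7 sites had 49.5% and 44.4% with 5AZA, 43.8% and 62.6% with saline, and 46.6% and 33.3% in sham kidneys, and its difference was 3.83 points without saline 2, 22.7 without saline 1, 6.63 without sham 2 and 19.9 without sham 1. None of these windows passed in that comparison (edgeR adjusted p of 0.390 or more). The largest site differences whose groups did not overlap lay in the same windows. At base 121116421 of Rasal1 the level was 35.2% and 20.9% with 5AZA, 43.1% and 48.3% with saline, and 31.2% and 21.4% in sham kidneys. At base 172715121 of Bmp7 it was 30.8% and 35.1% with 5AZA, 42.9% and 56.0% with saline, and 29.4% and 34.5% in sham kidneys. At base 24525236 of Sfrp1 it was 42.9% and 33.3% with 5AZA, 51.4% and 60.0% with saline, and 44.4% and 20.8% in sham kidneys. None of these sites passed between saline and sham (edgeR adjusted p = 0.937 for each).

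**Figure D4:**
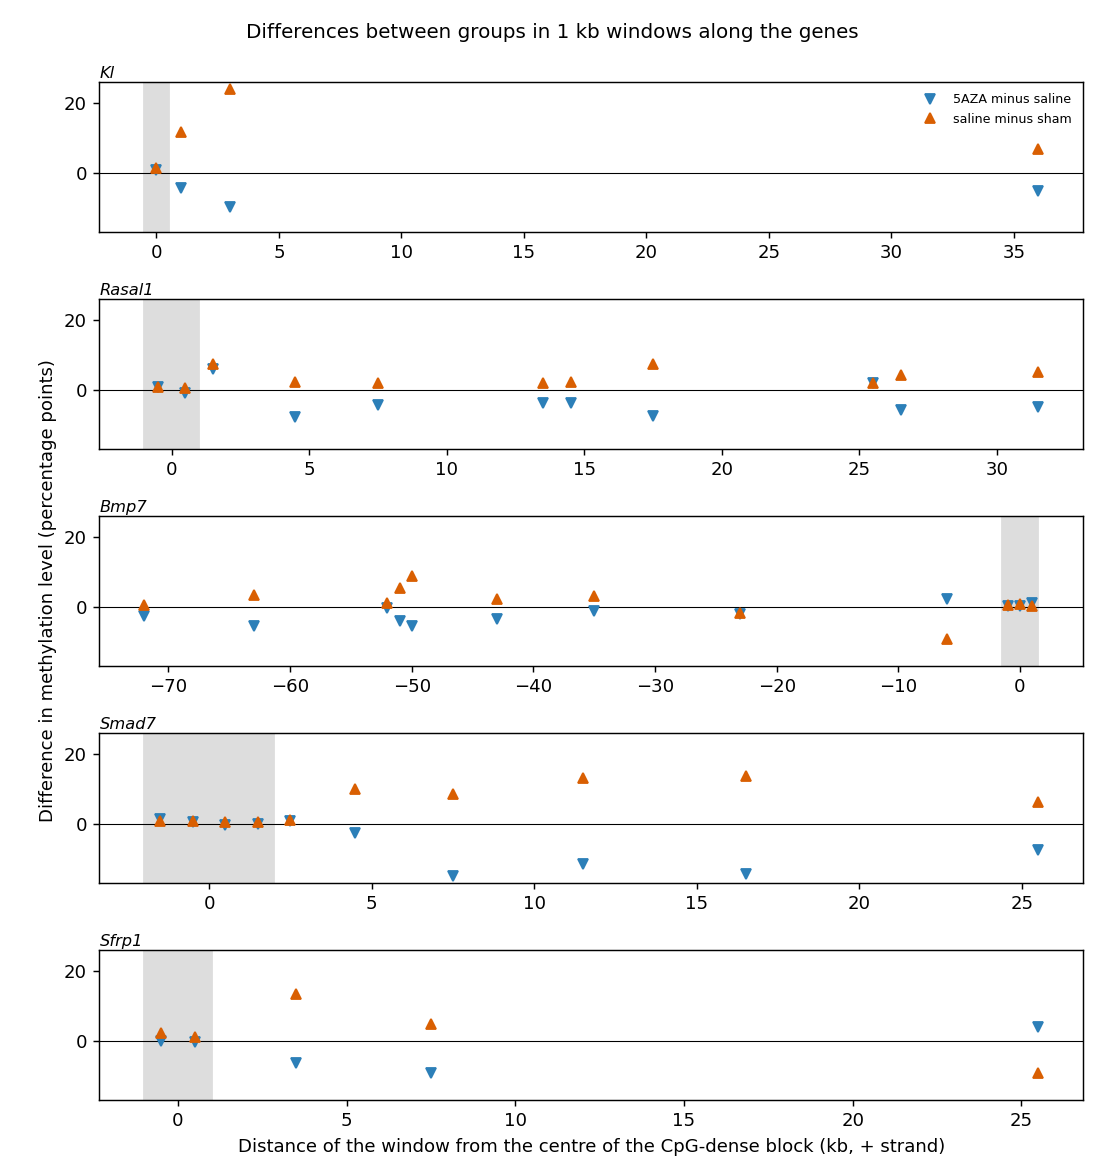
Difference in methylation level (percentage points) of each tested 1 kb window against its distance in kb from the centre of the CpG-dense block (grey) of each gene, for 5AZA minus saline (blue) and saline minus sham (orange). Inside the blocks both differences lie near 0, and outside them they reach -14.8 points in Smad7 and 23.9 points in Kl.

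For 5AZA, the same windows were compared with saline, using the same saline libraries as above. None of the 42 windows passed, by edgeR or by limma, where edgeR called 1.55% of all windows, 1392 of those 1396 being lower with 5AZA. At an unadjusted p under 0.05 there were 8 of 42, beside 23.2% of all windows. Of the 595 sites none passed, beside 0.00163% of all sites, and 30 had an unadjusted p under 0.05 beside 5.22%. In 19 of 42 windows, or 45.2%, every 5AZA library was lower than every saline library, beside 49.1% of all windows, and in 4 every one was higher, beside 5.69%. The median difference was -2.66 points in the 42 windows and -2.70 points in all windows, so the 5 genes were close to the genome as a whole in this comparison.

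Outside the blocks the mean level with 5AZA was 7.66 points lower than with saline in Smad7, 5.80 lower in Kl, 5.03 lower in Rasal1, 4.63 lower in Sfrp1 and 2.84 lower in Bmp7. In Sfrp1 the difference was -0.0558 points without saline 2 and -9.21 without saline 1. Libraries of these groups did not overlap except in Sfrp1. The largest window difference was in Smad7 (chr18:75535001-75536000, 4 sites), with 48.9% and 60.0% with 5AZA, 69.4% and 69.1% with saline, and 62.0% and 59.6% in sham kidneys (edgeR adjusted p = 0.147 between 5AZA and saline). The difference there was -14.8 points, and -9.25 without 5AZA 1. The smallest site p in this comparison was again in the Smad7 window at 75539001. Its site at base 75539095, singled out after its values were seen, had 3.03% and 3.57% with 5AZA, 33.9% and 25.0% with saline, and 19.2% and 4.55% in sham kidneys (edgeR adjusted p = 0.672). In Rasal1 the window at chr5:121103001-121104000 had 78.8% and 70.5% with 5AZA, 80.2% and 84.6% with saline, and 79.5% and 80.7% in sham kidneys, the most negative difference between 5AZA and saline among its windows at -7.75 points, with -3.62 without 5AZA 2 and -11.9 without 5AZA 1. In Bmp7 the window at chr2:172702001-172703000 had 83.0% and 88.0% with 5AZA, 91.2% and 90.8% with saline, and 88.5% and 86.9% in sham kidneys. There 5AZA minus saline was -5.49 points, and -3.01 without 5AZA 1. In Sfrp1 the window at chr8:24529001-24530000 had 66.9% and 71.5% with 5AZA, 78.4% and 78.0% with saline, and 77.5% and 69.4% in sham kidneys.

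**Figure D5:**
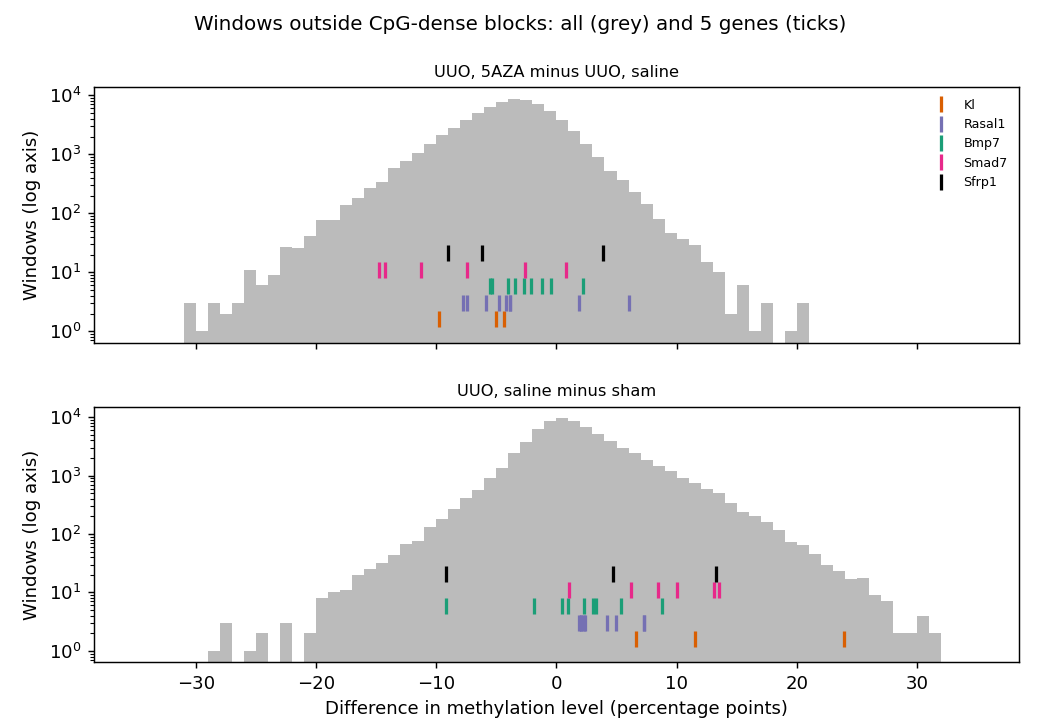
Numbers of 1 kb windows outside CpG-dense blocks (grey, log axis) by difference in methylation level in percentage points, for 5AZA minus saline (top) and saline minus sham (bottom), with ticks for the 30 windows of the 5 genes. For 5AZA minus saline the members' median is -4.27 points against -3.61 points in all such windows, and for saline minus sham it is 4.48 against 1.21 points.

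Between 5AZA and sham, a comparison that shares its libraries with the other comparisons, no member window passed beside 0.00111% of all windows, and no member site passed beside 0.00152%. At an unadjusted p under 0.05 there were 3 windows of 42, beside 14.7%, and 14 sites of 595, beside 3.52%. In 11 of the 42 windows, or 26.2%, every 5AZA library was higher than every sham library, beside 12.9% of all windows, and in 6, or 14.3%, every one was lower, beside 31.9%. The median difference was 0.623 points in the 42 windows and -1.12 points in all windows. Inside the blocks every 5AZA library was higher in 5 of 12 windows, or 41.7%, beside 33.8% of all dense windows. Outside the blocks this held in 6 of 30 windows, or 20.0%, beside 7.96% of all such windows. Every 5AZA library was lower there in 20.0%, beside 38.6%. The smallest window p was in Bmp7 (chr2:172742001-172743000, 19 sites), which had 92.9% and 92.4% with 5AZA, 93.2% and 96.2% with saline, and 96.7% and 96.5% in sham kidneys (edgeR adjusted p = 0.1299). Kl outside its block was 6.32 points higher with 5AZA than in sham kidneys, and its downstream window 14.2 points higher (edgeR adjusted p = 0.215).

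The promoters of the pathways around these genes were read in the same way for 56 listed genes, 5 members included. RefSeq promoter sequences at hand matched 38 of them, and 22 could be placed on the files' CpG positions, giving 24 promoters. Kl was the only member among these. No promoter sequence was at hand for Rasal1, Bmp7, Smad7 and Sfrp1, so their promoters were not tested. None of the 24 passed in either direction in any comparison, and neither did any of the 8589 promoters tested (0.0% in each comparison). At an unadjusted p under 0.05 the listed promoters numbered 3 between saline and sham, 2 between 5AZA and saline and 4 between 5AZA and sham, beside 7.28%, 3.28% and 5.24% of all promoters. The median difference between saline and sham was 1.10 points over the listed promoters, against 1.03 points over all promoters, and between 5AZA and saline it was 0.404 against -0.0517 points. In 10 of the 24 every saline library was higher than every sham library, beside 34.6% of all 8590 placed promoters, in 2 every one was lower, beside 5.2%, and in 12 the groups overlapped. Up to 3 promoters of each list are named, by the size of the difference between saline and sham.

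Of 5 BMP signalling promoters, the differences between saline and sham ran from -1.79 to 3.71 points. Bmpr2, a BMP receptor kinase, had 21.0% and 20.3% with 5AZA, 25.4% and 23.8% with saline, and 21.9% and 19.9% in sham kidneys. The BMP antagonists Chrd and Grem1 differed by -1.79 and -1.33 points, with overlap. Of 7 promoters on the list of TGF-β signalling and inhibitory SMADs, Smad3, which carries the TGF-β signal to the nucleus, had the largest difference, at 28.7% and 35.53% with 5AZA, 22.8% and 31.6% with saline, and 36.6% and 27.1% in sham kidneys, and the groups overlapped. Tgfbr1, a TGF-β receptor kinase, had 14.9% and 12.4% with 5AZA, 13.1% and 11.4% with saline, and 8.44% and 9.51% in sham kidneys, so both sham libraries were the lowest. Smurf2, a ubiquitin ligase that acts on the TGF-β receptor with Smad7, differed by 2.10 points between saline and sham without overlap. All 3 secreted Wnt antagonists read are named. Frzb had 28.0% and 25.8% with 5AZA, 32.6% and 31.9% with saline, and 27.4% and 26.8% in sham kidneys. Sfrp2, a paralogue of Sfrp1, had 30.1% and 24.8% with 5AZA, 32.4% and 33.5% with saline, and 28.2% and 30.2% in sham kidneys. Wif1 differed by 0.795 points, with overlap. Of 5 promoters of Ras GTPase-activating proteins, Rasa3 had 6.33% and 14.9% with 5AZA, 7.88% and 11.3% with saline, and 17.7% and 16.0% in sham kidneys, the highest 2 of the 6 values. Rasa1 went the other way, with 20.6% and 16.2% with 5AZA, 18.9% and 19.01% with saline, and 16.4% and 13.9% in sham kidneys. Dab2ip had 21.3% and 26.4% with 5AZA, 18.6% and 17.9% with saline, and 19.1% and 12.9% in sham kidneys at 1 of its promoters. Of 4 promoters of klotho and FGF receptors, the 2 of Fgfr3 differed between saline and sham by 3.65 and -3.58 points, each without overlap, and that of Kl by 0.404 points, with overlap. These promoter levels include candidate fragment ends.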

How the data were processed

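The data are bisulfite libraries of MspI fragments from mouse kidney, 6 in all and 2 per group. Per the labels' protocols, DNA was cut with MspI, end-repaired with methylated dCTP, size-selected and converted with bisulfite. The submitters' processing notes name Bowtie and mm9; neither their versions nor the trimming and the methylation caller are given in the sources used. The deposited files have no header. Each row holds a CpG position, the count of covering reads, the fraction methylated as the authors deposited it, and the count of methylated reads. The deposited fraction equalled methylated over covering reads in every row, 0 rows differing, and the counts were used. Positions are printed 1-based in mm9.

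Sites with 10 or more reads in all 6 libraries were kept. The genes, spans and lists were chosen with earlier results of these data known. Tests used edgeR 4.0.16 in R 4.3.3 (glmQLFit, an intercept per library, a group effect on methylated counts, 1 common dispersion, all 6 libraries), fitted and Benjamini-Hochberg adjusted over all windows, sites or promoters. Only the window tests were also run on simulated data, whose outcome is not given here. Sites at 0% or at 100% in every library were not tested, which left 595 of the 608 member sites. Fragment-end neighbours lay within 220 bp with at least 10% of the site's coverage each. RefSeq promoters (250 bases before to 50 after the start, GRCm38.p6) were placed on the files' CpG positions by CpG spacing on the same chromosome, with no coordinates converted. At least 8 matched sites were required for the test, and 6 for Kl. Its match was sought on the whole of chromosome 5 and lay inside its span. At 8 sites 9719 promoters were placed, and 19 matched a wrong chromosome used as a check. At a minimum of 6 sites, as used for Kl, 10890 were placed and 472 matched the wrong chromosome. The tests covered 8589 promoters with 3 or more shared sites. Windows named by rule are the one with the Kl start and, per gene, those with the highest and the lowest difference between saline and sham and between 5AZA and saline. Sites named by rule have the largest saline to sham difference among those whose groups do not overlap. Other windows quoted in the text, and the sites with the smallest p, fall outside these rules and were quoted after the values were seen. Alternatives were a coverage minimum of 5 or 20, windows of 500 bp, 5 sites per window, limma 3.58.1 on log2 ratios with 1 added to each count, pooled reads, no candidate fragment ends, a replicate block, only the 4 libraries of a comparison, and each library left out in turn. Levels outside the blocks without single libraries, and windows without sham 2, were added after the data were seen. Intervals are Wilson 95% intervals; reads are not independent molecules. Python 3.11.15 with numpy 2.4.6 and pandas 2.3.3 read the tables.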

Additional observations from a re-analysis of the deposited data

How the results depend on the processing

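The count of member windows, sites or listed promoters that passed was 0 under all alternatives run, with 1 exception under the replicate block. Replicate numbers are shared by the saline and 5AZA groups, but deviations of same-numbered libraries did not go together (correlation -0.010), so the numbers give no pairing. With the replicate block, 1 member window passed between 5AZA and saline, that of Bmp7 at chr2:172722001-172723000 (91.1% and 88.3% with 5AZA, 94.6% and 91.7% with saline), beside 6856 of all windows. No block was fitted with sham, whose libraries carry no shared number in the labels. Over all windows the calls between 5AZA and saline numbered 1396, and 850 at a coverage minimum of 20, 413 in windows of 500 bp, 173 with the 4 libraries compared alone, and 0 to 1180 with 1 library left out; between saline and sham they numbered 45, and 28, 72 and 0 to 40 for windows of 500 bp, 4 libraries and leaving out 1. Between 5AZA and sham they numbered 1, and 1 to 148 with 1 left out. Over all sites, calls with 1 library left out were 2 to 43 between 5AZA and saline, 3 to 208 between saline and sham and 6 to 106 between 5AZA and sham, and 0 by limma. For all promoters they were 0 to 1.

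Whole-span differences that changed sign did so as follows, in percentage points; the cause was not tested. With pooled reads, 5AZA minus saline was 2.17 in Bmp7, 1.55 in Smad7 and 0.864 in Sfrp1, saline minus sham was -1.63 in Bmp7 and -0.816 in Sfrp1, and 5AZA minus sham was 0.548 in Bmp7. At a coverage minimum of 20, 5AZA minus sham was 0.0055 in Bmp7 and 0.0746 in Rasal1. Leaving out 1 library gave ranges of -0.112 to 2.11 for saline minus sham in Bmp7, and for 5AZA minus sham of -1.98 to 0.239 in Bmp7, -1.61 to 0.483 in Rasal1 and -0.696 to 2.14 in Sfrp1. Outside the blocks the ranges were -0.274 to 2.11 in Bmp7 and -0.280 to 8.88 in Sfrp1 for saline minus sham, and -3.25 to 0.153 in Rasal1, -3.66 to 2.99 in Sfrp1 and -0.432 to 1.84 in Smad7 for 5AZA minus sham.

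Ranges with 1 library left out were computed only for the windows named by rule, as set out under processing. Other windows quoted above have no such range, so their absence below does not speak to their stability. Among the windows named by rule, leaving out 1 library gave ranges that crossed 0 in the following. For saline minus sham these were Kl 151755001 (-0.0559 to 2.53), Rasal1 121099001 (-0.332 to 1.13) and Smad7 75528001 (-0.357 to 1.33). For 5AZA minus saline they were Bmp7 172759001 (-1.91 to 6.35), Kl 151755001 (-0.519 to 2.07), Sfrp1 24525001 (-15.6 to 3.20), Smad7 75526001 (-0.0333 to 2.64) and Smad7 75528001 (-1.09 to 0.575). For 5AZA minus sham they were Bmp7 172702001 (-4.71 to 0.262), Rasal1 121099001 (-1.17 to 0.289), Smad7 75528001 (-0.613 to 1.07) and Smad7 75544001 (-8.28 to 6.85). At a coverage minimum of 20 the sign also turned in Bmp7 172759001 for 5AZA minus saline (-0.856) and in Smad7 75528001 for 5AZA minus sham (-0.509) and saline minus sham (-0.370). At a minimum of 5 it turned in Smad7 75528001 for 5AZA minus saline (0.116). Without candidate fragment ends it turned in Rasal1 121099001 for 5AZA minus saline (0.415) and 5AZA minus sham (0.656). None of these windows passed under any alternative run. Windows of 3 or 4 sites rest on as few as 45 reads in a library.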
